A study of Homo sapiens with 3 samples.

Results

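UCHL1, NCAM1, DPYSL3, LRRN1, TSHZ3 and OLR1 are 6 genes that stood above both other cell lines in MDA-MB-436 breast adenocarcinoma cells. They were picked by symbol, from earlier results on these same arrays, out of 14410 genes that had a transcript cluster of their own, where a transcript cluster is the set of exon array probes summarised to 1 value for a gene. Their height in MDA-MB-436 is therefore a description of how they were chosen and not a test. The choice used no threshold.

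Total RNA from 3 established human cell lines was hybridised to exon arrays, with 1 array per line. MDA-MB-436, from a breast adenocarcinoma, was grown in L-15 medium with 10% fetal bovine serum and without CO2. HT-29, from a colon adenocarcinoma, was grown in McCoy's 5A medium with 10% fetal bovine serum and had received interferon gamma (IFN-γ) at 200 U/ml for 24 h. MCF10A, labelled mammary epithelial, was grown in DMEM/F12 with 5% horse serum, epidermal growth factor at 20 ng/ml, hydrocortisone at 500 ng/ml, cholera toxin at 100 ng/ml and insulin at 10 µg/ml. Line, medium and, for HT-29, cytokine cannot be told apart in any comparison. No replicate spread, standard error or p-value could be had from 1 array per line, and the values describe these 3 arrays.

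All but OLR1 are genes best known from the nervous system. UCHL1, also called PGP9.5, is a ubiquitin hydrolase that is abundant in neurons. NCAM1, or CD56, is a homophilic adhesion molecule of the immunoglobulin family, found on neurons and also on natural killer cells. DPYSL3, or CRMP4, is a collapsin response mediator protein, a cytosolic phosphoprotein of growing axons that acts on the cytoskeleton. LRRN1 is a leucine-rich repeat membrane protein of neural tissue, and TSHZ3 is a zinc finger transcription factor of the teashirt family, known in mouse from the brain and from ureter smooth muscle. OLR1, or LOX-1, is not a neural gene by common description: it is a C-type lectin scavenger receptor that takes up oxidised low-density lipoprotein, best known in endothelium and macrophages.

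The RefSeq promoter table of GRCh38.p14 held windows for UCHL1, LRRN1, TSHZ3 and DPYSL3, reaching 250 bases before to 50 after the annotated start. The windows of UCHL1 and LRRN1 and both windows of DPYSL3 are printed because these genes were high in the same line and their start regions can be set beside each other. Each is written 5′ to 3′ in the direction of transcription, and capitals mark matches, on either strand, to any of the motifs that were searched.
UCHL1, chr4:41256678-41256977, plus strand: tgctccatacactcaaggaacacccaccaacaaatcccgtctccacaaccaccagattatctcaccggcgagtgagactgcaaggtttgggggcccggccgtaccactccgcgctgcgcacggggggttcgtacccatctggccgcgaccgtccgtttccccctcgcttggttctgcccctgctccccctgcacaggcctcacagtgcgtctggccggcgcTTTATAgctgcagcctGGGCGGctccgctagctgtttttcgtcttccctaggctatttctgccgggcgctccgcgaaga
LRRN1, chr3:3799181-3799480, plus strand: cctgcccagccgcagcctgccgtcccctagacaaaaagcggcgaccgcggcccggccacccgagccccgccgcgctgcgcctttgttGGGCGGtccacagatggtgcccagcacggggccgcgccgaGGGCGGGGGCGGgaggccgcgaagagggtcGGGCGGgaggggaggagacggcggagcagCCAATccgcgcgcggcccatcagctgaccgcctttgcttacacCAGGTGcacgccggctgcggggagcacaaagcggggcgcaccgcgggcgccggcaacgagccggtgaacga
DPYSL3, upstream start, chr5:147510019-147510318, minus strand: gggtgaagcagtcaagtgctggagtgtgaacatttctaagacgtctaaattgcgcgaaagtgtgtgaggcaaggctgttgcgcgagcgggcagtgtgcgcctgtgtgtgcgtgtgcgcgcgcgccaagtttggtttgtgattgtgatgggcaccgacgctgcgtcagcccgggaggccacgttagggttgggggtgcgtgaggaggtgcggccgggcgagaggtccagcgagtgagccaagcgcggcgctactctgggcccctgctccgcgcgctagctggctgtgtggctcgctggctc
DPYSL3, downstream start, chr5:147453643-147453942, minus strand: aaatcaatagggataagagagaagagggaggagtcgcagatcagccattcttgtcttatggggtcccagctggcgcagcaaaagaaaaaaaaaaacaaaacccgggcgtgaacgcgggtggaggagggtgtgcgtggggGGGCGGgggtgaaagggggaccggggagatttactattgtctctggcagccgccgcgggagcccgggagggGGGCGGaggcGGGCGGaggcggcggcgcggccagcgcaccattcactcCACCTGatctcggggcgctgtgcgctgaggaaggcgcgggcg

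The motifs were the GC box GGGCGG, the CCAAT box, the E-box CACCTG, the TATA box TATAAA, the AP-1 site TGANTCA, the cyclic AMP response element TGACGTCA and TTCAGCACC, the left part of RE1, the element bound by the neuronal gene repressor REST. The UCHL1 window held 1 GC box and, read on the opposite strand, 1 TATA box, which begins 29 bases before the start. The LRRN1 window held 4 GC boxes, 1 CCAAT box and 1 E-box. The downstream DPYSL3 window held 3 GC boxes and 1 E-box, whereas the upstream one matched none of the motifs. The TSHZ3 window, on chromosome 19 and not printed, held 5 GC boxes. Among all 35116 windows of 300 bases, 45% had a GC box, 34.6% a CCAAT box, 20.6% the E-box and 11.5% the TATA box. AP-1 sites were in 7.71%, cyclic AMP response elements in 1.85% and the left part of RE1 in 0.376% of windows, and the printed windows matched none of these motifs.

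The 5 windows were rich in CpG dinucleotides, the sites at which DNA can be methylated. They held 25 in UCHL1, 42 in LRRN1, 31 in TSHZ3 and 29 and 27 in the upstream and downstream windows of DPYSL3, against a median of 14 over all windows. The LRRN1 window had more CpG than 94.2% of all windows and the UCHL1 window more than 68%. The array gave 1 value for DPYSL3, so use of its starts was not analysed here, and methylation was not measured.

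Olfactory receptor genes, which these lines are not known to use, gave the background: the 95th percentile over 228 of them was 29.9, and the brightest value among them 101. Median intensities over all 18708 transcript clusters were 81 in MDA-MB-436, 75.9 in HT-29 and 75.1 in MCF10A, and 9908, 9595 and 9362 genes lay above background. Markers of the labels were present in part. The intestinal genes LGALS4, KRT20 and VIL1 stood at 2372, 1348 and 263 in HT-29, but CDX2 was at only 74.8 there, CDX1 at 34.8, against 33.3 in MDA-MB-436, and CDH17 was under background at 21.3. The basal keratin gene KRT14 was at 3732 in MCF10A. MDA-MB-436 had the matrix protease gene MMP2 at 674 with the E-cadherin gene CDH1 at 10.3, which does not check its label of breast adenocarcinoma. A list of 13 genes for mesenchymal-type breast lines held some sought high and some, such as CDH1, sought low. Of these, 5 were at least 4-fold above both other lines and 4 below both, beside 2.16% and 0.819% of all genes. KRT5 and TP63 had no cluster of their own and were not analysed here.

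All 6 genes were above background in MDA-MB-436 and under background in both HT-29 and MCF10A, so each fold against these lines is a lower bound, set against the background intensity and written as "at least". Of all genes, 535, or 3.71%, had this pattern. By measured intensity, all 6 were at least 4-fold above both other lines, as were 311 of 14410 genes, or 2.16%, and nothing can be read from that count since it follows from how the genes were picked. In bulk RNA, fewer cells that express a gene and less RNA per cell cannot be told apart.

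**Figure D1:**
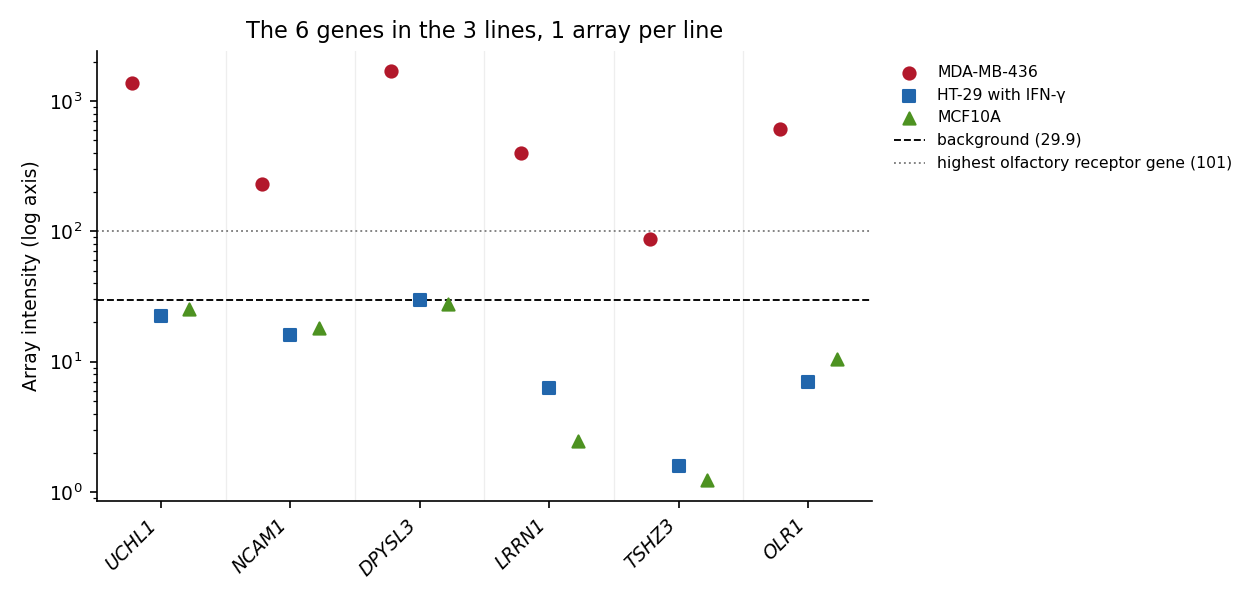
Array intensity on a log axis of the 6 genes in MDA-MB-436 (circles), HT-29 with IFN-γ (squares) and MCF10A (triangles), 1 array per line and no error bars because there are no replicates. The dashed line is the background of 29.9 and the dotted line the highest olfactory receptor intensity of 101; the MDA-MB-436 points lie above background and the others under it, and TSHZ3 alone lies under the dotted line in MDA-MB-436. Heights of different genes are not comparable, since each gene has its own probes.

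UCHL1 had an intensity of 1376 in MDA-MB-436, against 22.6 in HT-29 and 25.4 in MCF10A. It was thus at least 46-fold above either line, and its level in the other lines could not be told from background. DPYSL3 reached 1689 in MDA-MB-436, against 29.8 in HT-29 and 27.7 in MCF10A, at least 56.5-fold higher. Its value in HT-29 lies just under the background of 29.9, so this bound is close to the measured 56.7-fold.

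OLR1 had an intensity of 611 in MDA-MB-436, against 6.93 in HT-29 and 10.6 in MCF10A, at least 20.4-fold higher. LRRN1 measured 397 in MDA-MB-436, against 6.33 in HT-29 and 2.47 in MCF10A, at least 13.3-fold higher. For LRRN1 the distance between bound and measured fold was wide, since the measured ratios were 62.7 over HT-29 and 161 over MCF10A. NCAM1 stood at 229 in MDA-MB-436, against 15.9 in HT-29 and 18 in MCF10A, at least 7.67-fold higher.

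The evidence for TSHZ3 was weaker. Its intensity was 87.2 in MDA-MB-436, against 1.58 in HT-29 and 1.23 in MCF10A. The measured ratios of 55.3 over HT-29 and 70.9 over MCF10A shrink to at least 2.91-fold once the dim values are set to background, which is under 4-fold. In MDA-MB-436, 2 of the 228 olfactory receptor genes were brighter than TSHZ3. With values under background set to the background, 5 of the 6 genes, all but TSHZ3, were at least 4-fold above both other lines, beside 187, or 1.3%, of all genes.

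The genes were ordered by the log2 distance of MDA-MB-436 above the higher of the other lines. LRRN1 ranked 2 at 5.97, OLR1 ranked 3 at 5.86, DPYSL3 ranked 4 at 5.83, TSHZ3 ranked 6 at 5.79 and UCHL1 ranked 7 at 5.76. NCAM1, at 3.67, ranked 79. Ranks 1 and 5 were held by MAGEA4, a cancer-testis gene, and CCL2, a chemokine gene, which are not among the 6. Setting dim values to background changed the order: DPYSL3 then ranked 2, UCHL1 3, OLR1 15, LRRN1 31, NCAM1 70 and TSHZ3 292. The ranks of LRRN1 and TSHZ3 thus rested mostly on how dim they were in the other lines.

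**Figure D2:**
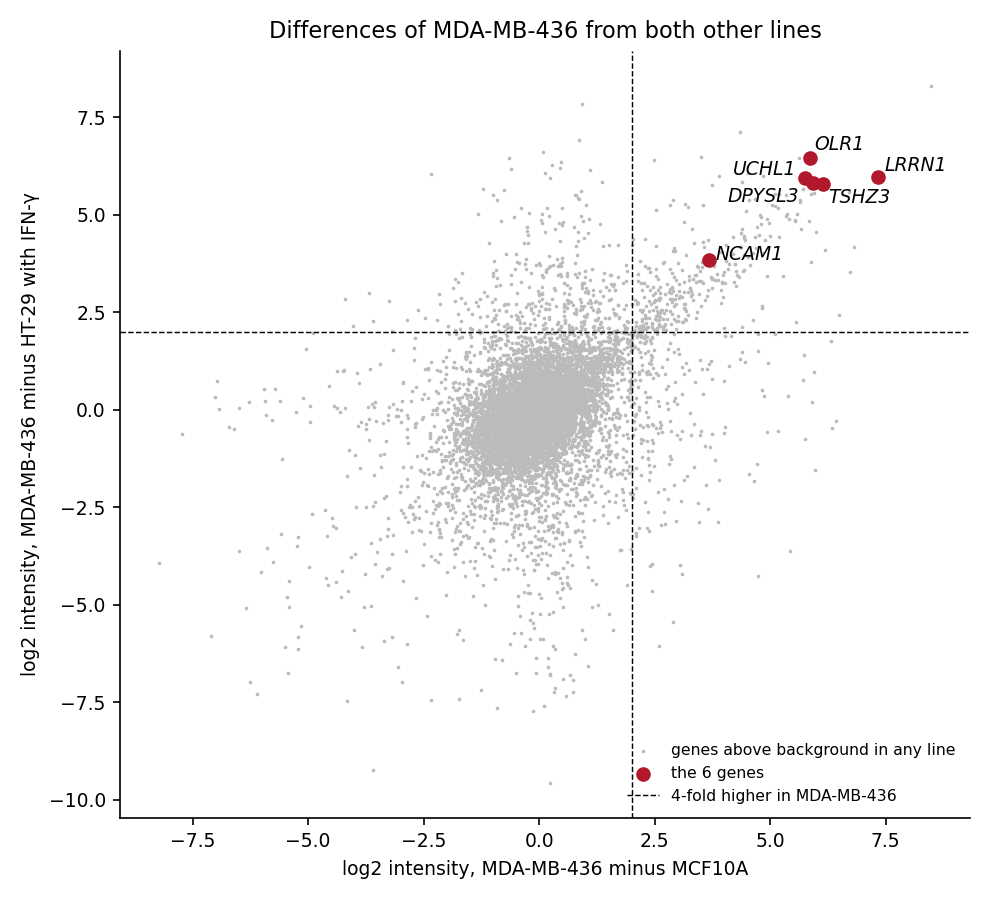
Each point is a gene above background in at least 1 line, with its log2 difference of MDA-MB-436 from MCF10A on the x axis and from HT-29 with IFN-γ on the y axis; the axes share the MDA-MB-436 array. Red points are the 6 genes and dashed lines mark 4-fold, a log2 difference of 2; NCAM1 lies nearer to the lines, at 3.67 and 3.85, than the others.

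The difference between HT-29 and MCF10A was not used directly in the choice, but both values were, since each lay below MDA-MB-436. The log2 difference of HT-29 from MCF10A was 1.36 for LRRN1, 0.36 for TSHZ3, 0.10 for DPYSL3, -0.17 for UCHL1, -0.18 for NCAM1 and -0.61 for OLR1. Of the 6 genes, 3 were thus higher and 3 lower in HT-29. All of these values were under background in both lines and no fold is given. Among olfactory receptor genes the SD of the same difference was 0.758. The difference of LRRN1 exceeded that size and those of the other 5 genes did not. With dim values set to background, all 6 differences were 0, so none is read as a difference between these lines.

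Relatives of each gene were read next, to see whether the family or the single gene was high in MDA-MB-436. For the collapsin response mediator family of DPYSL3, CRMP1 and DPYSL4 were high too. CRMP1 had an intensity of 434 in MDA-MB-436, against 31.1 in HT-29 and 26.3 in MCF10A, 14-fold above HT-29 and at least 14.5-fold above MCF10A. DPYSL4 reached 163 in MDA-MB-436, against 28.3 in HT-29 and 31.5 in MCF10A, at least 5.44-fold and 5.17-fold higher. DPYSL5 measured 67.9 in MDA-MB-436, against 18.1 in HT-29 and 16.6 in MCF10A, at least 2.27-fold higher and under the highest olfactory receptor intensity. DPYSL2, the member most widely expressed among tissues, differed: it stood at 634 in MDA-MB-436, against 130 in HT-29 and 1291 in MCF10A, 4.87-fold above HT-29 and 2.03-fold below MCF10A. DPYS, the liver enzyme of pyrimidine breakdown that gave the family its name, was under background in all 3 lines.

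By count, 2 of the 5 measured relatives of DPYSL3 were at least 4-fold above both other lines, beside 2.16% of all genes, and 1 with a pseudocount of 16, which DPYSL4 did not pass. Related genes can share probe signal, which was not tested. Of 14 measured kinases and partners of these proteins, 0 were at least 4-fold above or below both other lines, beside 2.16% and 0.819% of all genes. At such shares so short a list would hold few or none, so the count is no result about the list. The semaphorin co-receptor genes PLXNA2 and PLXNA1 were 3.5-fold and 1.87-fold lower in MDA-MB-436 than in MCF10A.

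The relatives of UCHL1 were not high. UCHL3, the closest relative of UCHL1, had an intensity of 331 in MDA-MB-436, against 1343 in HT-29 and 1184 in MCF10A, 4.06-fold and 3.57-fold lower. UCHL5, a hydrolase of the proteasome, reached 184 in MDA-MB-436, against 176 in HT-29 and 280 in MCF10A. UCHL3 was thus lowest in the line in which UCHL1 was highest. BAP1, the remaining ubiquitin C-terminal hydrolase, had no cluster of its own and was not analysed here. Of 7 measured genes of ubiquitin and its hydrolases, 0 were 4-fold above either line, beside 3.65% of all genes for MCF10A and 4.68% for HT-29.

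LRRN2, LRRN3 and LRRN4 did not follow LRRN1. LRRN2 measured 36.3 in MDA-MB-436, against 37.6 in HT-29 and 37.6 in MCF10A, while LRRN3 was under background in all 3 lines and LRRN4 above it only in HT-29, at 32.7. Of 21 measured genes of this wider class of neuronal leucine-rich repeat proteins, 0 were at least 4-fold above both other lines and 1 was below both, beside 2.16% and 0.819% of all genes. That gene was FLRT3, an adhesion protein that binds FGF receptors, at 45.1 in MDA-MB-436, against 355 in HT-29 and 989 in MCF10A, 7.88-fold and 22-fold lower.

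For TSHZ3, the paralog TSHZ2 stood at 140 in MDA-MB-436, against 64.6 in HT-29 and 43 in MCF10A, 2.16-fold and 3.25-fold higher, and TSHZ1 was at 81.6, against 50.2 in HT-29 and 97.9 in MCF10A. ZFHX4, a zinc finger homeobox gene, was at least 1.73-fold higher than in either line, at 51.9 in MDA-MB-436 against 13.8 in HT-29 and 11.8 in MCF10A. APBB1, whose protein Fe65 binds teashirt proteins, was 1.79-fold higher than in HT-29 and 1.91-fold higher than in MCF10A.

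**Figure D3:**
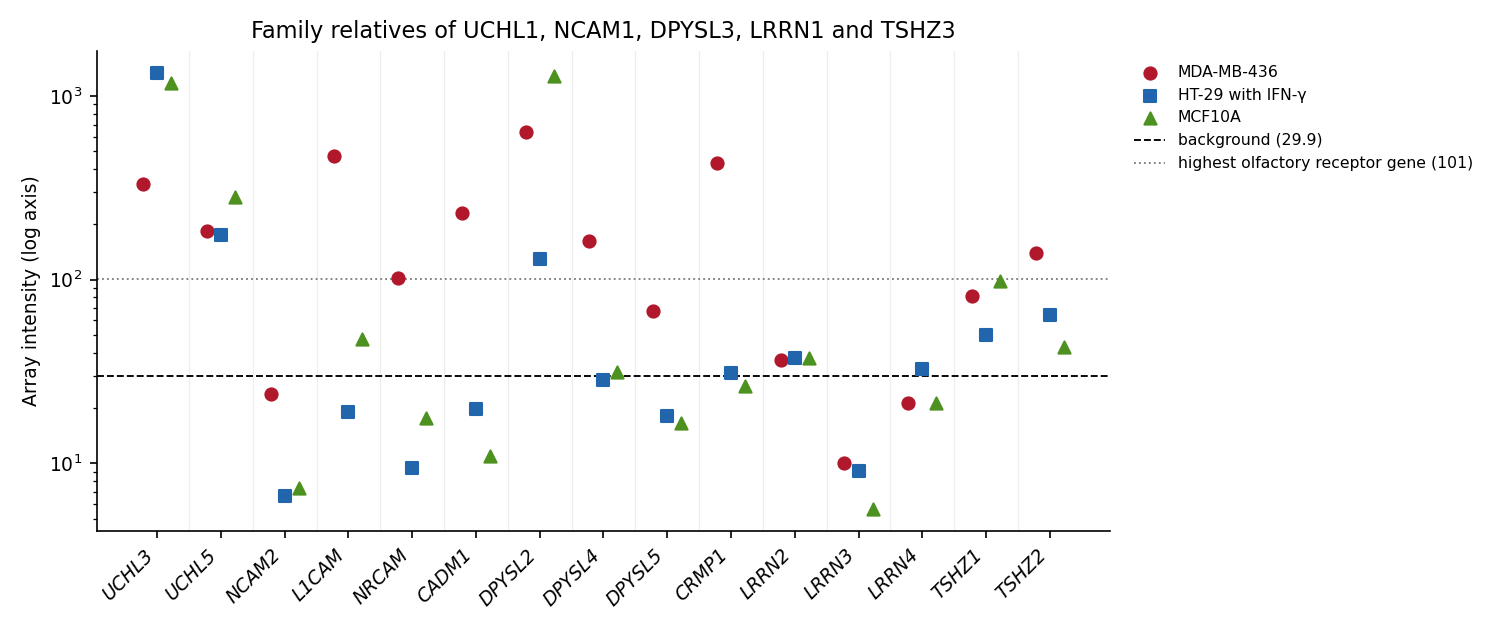
Array intensity on a log axis of family relatives in MDA-MB-436 (circles), HT-29 with IFN-γ (squares) and MCF10A (triangles), 1 array per line; the dashed line is the background of 29.9 and the dotted line the highest olfactory receptor intensity of 101. CRMP1, DPYSL4, L1CAM and CADM1 stand above the dotted line in MDA-MB-436 and near or under background elsewhere, while UCHL3 is lowest in MDA-MB-436 and LRRN2 is level.

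NCAM1 belongs to a large class of immunoglobulin adhesion molecules. Its closest relative NCAM2 was under background in all 3 lines, at 23.9 in MDA-MB-436, 6.65 in HT-29 and 7.32 in MCF10A. In the wider class, 3 of 16 measured genes were at least 4-fold above both other lines and 0 below both, beside 2.16% and 0.819% of all genes. L1CAM, an adhesion molecule of growing axons, had an intensity of 473 in MDA-MB-436, against 19 in HT-29 and 47.8 in MCF10A, at least 15.8-fold and 9.9-fold higher. CADM1, a synaptic and epithelial adhesion molecule, reached 231 in MDA-MB-436, against 19.8 in HT-29 and 10.9 in MCF10A, at least 7.72-fold higher. NRCAM, a neuronal relative of L1CAM, measured 102 in MDA-MB-436, against 9.41 in HT-29 and 17.7 in MCF10A, at least 3.39-fold higher and thus past 4-fold only by measured intensity.

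Among 14 measured partners of NCAM1 and enzymes that modify it, 1 was at least 4-fold above both other lines, beside 2.16% of all genes, which at this list size is no result about the list. It was GFRA1, a receptor for the growth factor GDNF for which NCAM1 can act as a signalling partner, at 182 in MDA-MB-436, against 16.5 in HT-29 and 11.6 in MCF10A, at least 6.09-fold higher. FGFR1, a receptor kinase that NCAM1 can engage, stood at 245 in MDA-MB-436, against 27.4 in HT-29 and 80.9 in MCF10A, at least 8.17-fold and 3.02-fold higher. The kinase gene FYN lay between the others, at 127 in MDA-MB-436, 372 in HT-29 and 43.4 in MCF10A. PRNP, the prion protein gene, was 2.4-fold lower than in HT-29 and 3-fold lower than in MCF10A.

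OLR1 sits on chromosome 12 among other C-type lectin genes of immune cells. Of 12 such genes measured, 11 were under background in all 3 lines, beside 25.7% of all genes, and 0 were at least 4-fold above both other lines, beside 2.16%. The remaining one, the lymphocyte receptor gene KLRG1, reached 54.4 in MDA-MB-436, against 8.46 in HT-29 and 16.7 in MCF10A, at least 1.82-fold higher. Of 13 measured scavenger receptor genes, 0 were at least 4-fold above both other lines as deposited, again beside 2.16% of all genes. After quantile normalization 1, CD68, was. CD68, a lysosomal glycoprotein common in macrophages, measured 1203 in MDA-MB-436, against 314 in HT-29 and 294 in MCF10A, 3.84-fold and 4.1-fold higher. CXCL16, a membrane chemokine that also binds oxidised lipoprotein, stood at 55.2 in MDA-MB-436, against 447 in HT-29 and 151 in MCF10A, 8.09-fold and 2.73-fold lower.

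Neural genes beyond these families were read from 3 lists, of neuronal cytoskeleton and axon growth, of synaptic and neuroendocrine genes, and of neural RNA-binding and transcription factors. Together they had 58 measured genes, of which 9, or 15.5%, were at least 4-fold above both other lines and 0 below both, beside 2.16% of all genes. With dim values set to background, 5 of them, or 8.62%, remained past 4-fold, beside 1.3% of all genes. The median log2 difference of the 58 genes was 0.25 from HT-29 and 0.32 from MCF10A, against -0.08 and 0.02 over all genes. With dim values set to background, both medians were 0, as they were over all genes, so no shift of the medians remained. Most of the listed genes were not past 4-fold. Of the 58 genes, 21 were under background in all 3 lines. The lists were drawn up with earlier results on these arrays known, and their counts are a description.

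Of 18 measured cytoskeleton and axon genes, 3, or 16.7%, were at least 4-fold above both other lines, beside 2.16% of all genes. MAP1B, a microtubule-associated protein of axons, had an intensity of 390 in MDA-MB-436, against 15.1 in HT-29 and 14.8 in MCF10A, at least 13-fold higher. The neurofilament gene NEFL reached 156 in MDA-MB-436, against 14.1 in HT-29 and 14.8 in MCF10A, and the doublecortin-like kinase gene DCLK1 was also at 156, against 9.98 in HT-29 and 17.3 in MCF10A, each at least 5.2-fold higher. BASP1, a growth cone membrane protein, was 18.6-fold higher than in HT-29 and 3.28-fold higher than in MCF10A.

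Of 20 measured synaptic and neuroendocrine genes, 3, or 15%, were at least 4-fold above both other lines, beside 2.16% of all genes. ENO2, the neuronal enolase, measured 560 in MDA-MB-436, against 92.5 in HT-29 and 19.6 in MCF10A, 6.05-fold and at least 18.7-fold higher. The synaptic vesicle fusion genes SNAP25 and SYT1 were at 95.6 and 88.5 in MDA-MB-436 and between 9.03 and 13.4 in the other lines, at least 3.2 times and 2.96 times as high. Both lie under the highest olfactory receptor intensity of 101. DDC, which makes dopamine and serotonin, was above background only in HT-29, at 70.2.

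Of 20 measured neural RNA-binding and transcription factor genes, 3, or 15%, were at least 4-fold above both other lines, beside 2.16% of all genes. ZIC1, a zinc finger factor of the hindbrain, stood at 278 in MDA-MB-436, against 12.7 in HT-29 and 8.73 in MCF10A, at least 9.29-fold higher. The neuronal splicing factor gene NOVA1 reached 81.9 in MDA-MB-436, against 11.7 in HT-29 and 6.8 in MCF10A, at least 2.74-fold higher. The eye and brain factor gene PAX6 measured 68.9 in MDA-MB-436, against 12.2 in HT-29 and 6.44 in MCF10A, at least 2.3-fold higher.

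Markers that define neurons as a cell type were mostly dim where measured. TUBB3 and RBFOX3 had no cluster of their own and were not analysed here. Of 8 measured, 3 were above background in MDA-MB-436, SNAP25, SYT1 and MAP2, beside 68.8% of all genes. MAP2 was above it in all 3 lines, at 77.7 in MDA-MB-436, 62.9 in HT-29 and 41.1 in MCF10A. By measured intensity 2 of the 8, SNAP25 and SYT1, were at least 4-fold above both other lines, beside 2.16% of all genes. The other 5 were under background in all 3 lines, among them the synaptophysin gene SYP at 25.5 and the doublecortin gene DCX at 10.8 in MDA-MB-436. The label of neural-type genes thus holds for what 5 of the 6 genes are known for, but not for OLR1 and not for the 8 measured neuronal markers as a whole. Of markers for the other cell types in which these genes are known, 0 of 5 endothelial and 2 of 7 leukocyte markers were above background in MDA-MB-436, beside 68.8% of all genes. Those 2 leukocyte markers were CD14, a monocyte co-receptor gene, at 86.5 in MDA-MB-436, 38.9 in HT-29 and 156 in MCF10A, and NKG7, a granule protein gene of cytotoxic lymphocytes, at 32.1, 35.1 and 38.0. PTPRC, at 4.16, and KLRF1, at 1.71, were far under background in MDA-MB-436; the part of such cells in the results was not tested. The summed intensity of the 7 leukocyte markers was 164 in MDA-MB-436, 116 in HT-29 and 244 in MCF10A. CD14 was the largest value in that sum in each line. For the 5 endothelial markers, all under background in all 3 lines, the sums were 70.3, 55 and 67.9. Neither sum measures such cells. Of 4 smooth muscle markers, 1 was above background in MDA-MB-436, as in HT-29 and MCF10A.

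Genes that repress neuronal genes in other cells were read as well. Of 13 measured, 0 were at least 4-fold above or below both other lines, beside 2.16% and 0.819% of all genes. At such shares so short a list would hold few or none. The median log2 difference of the 13 genes was -0.17 from HT-29 and 0.03 from MCF10A, against -0.08 and 0.02 over all genes. RCOR1, the corepressor of REST, stood at 214 in MDA-MB-436, against 465 in HT-29 and 491 in MCF10A, 2.17-fold and 2.3-fold lower. RCOR2, a related corepressor of embryonic and neural cells, was at least 1.81-fold higher, at 54.3 against 21 in HT-29 and 18 in MCF10A. KDM1A, the demethylase of that complex, was 1.12-fold lower than in HT-29 and 2.08-fold lower than in MCF10A.

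**Figure D4:**
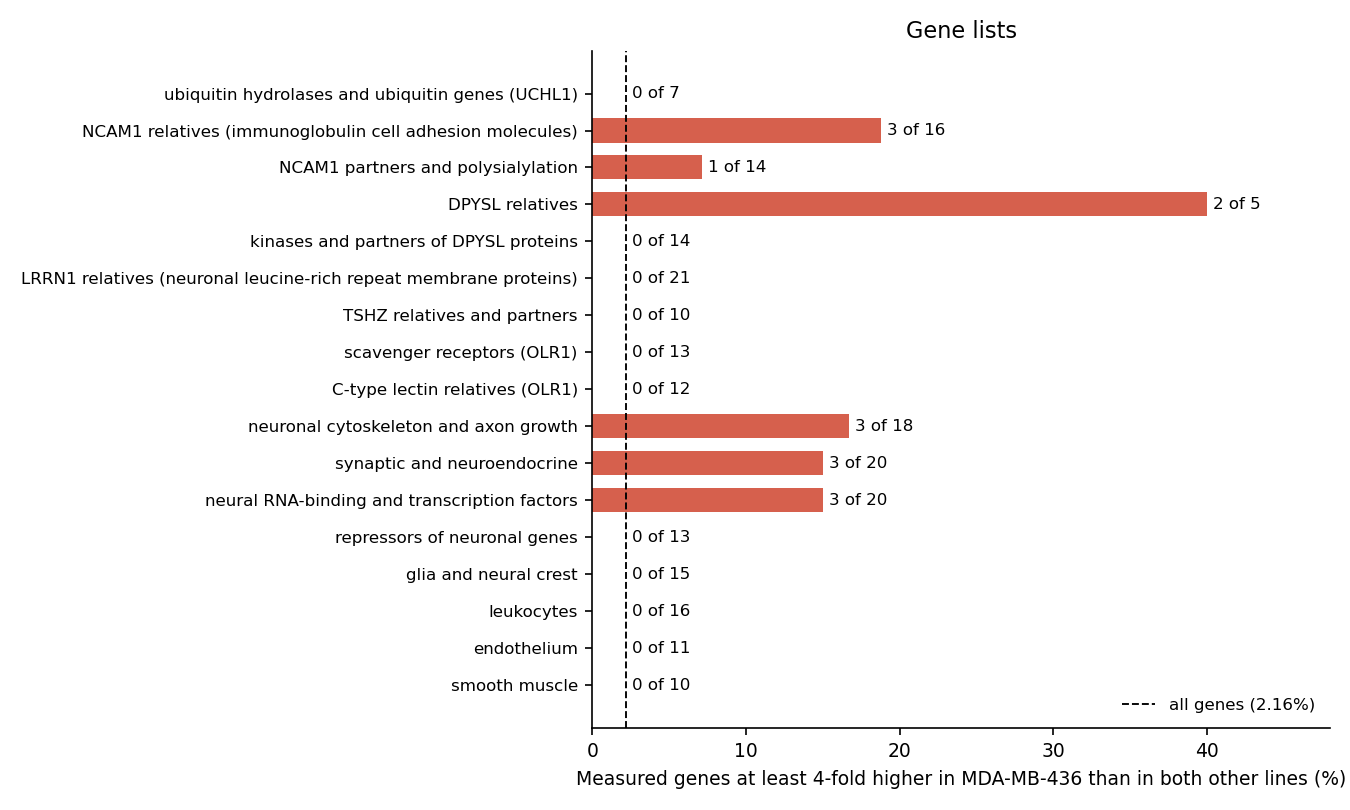
Share of the measured genes of 17 lists, in percent, whose MDA-MB-436 intensity was at least 4-fold above both HT-29 with IFN-γ and MCF10A; labels give the count of measured genes. The dashed line is the 2.16% of all 14410 genes; among the plotted lists, those of NCAM1 and DPYSL3 relatives, NCAM1 partners and the 3 neural lists have such genes, and all lists are small. The 3 lists that check the lines are not plotted; that of mesenchymal-type breast lines had 5 such genes of 13, or 38.5%.

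The 6 genes lie on 6 chromosomes, 4 for UCHL1, 11 for NCAM1, 5 for DPYSL3, 3 for LRRN1, 19 for TSHZ3 and 12 for OLR1. For each, the 5 nearest measured genes on either side were read in the gene order of the RefSeq table, passing over genes with no cluster of their own. Of these 60 neighbours, 1, or 1.67%, was at least 4-fold above both other lines, against 2.16% of all genes, and 0 were below both. The count is near the share of all genes and says nothing about the neighbours.

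The exception lay next to OLR1. TMEM52B reached 47.9 in MDA-MB-436, against 8.09 in HT-29 and 7.18 in MCF10A, which is at least 1.6-fold and under the highest olfactory receptor intensity. On the other side of OLR1, the lectin genes CLEC7A, CLEC1A, CLEC9A, CLEC12B and CLEC12A were under background in all 3 lines. Around LRRN1, 7 of 10 neighbours were higher in MDA-MB-436 than in HT-29 and 9 of 10 higher than in MCF10A, with median log2 differences of 1.02 and 0.58, while 45.2% and 51.1% of all genes were higher. Of these 10 neighbours, 4 were under background in all 3 lines, and the other 6, TRNT1, CRBN, SETMAR, ITPR1, BHLHE40 and EDEM1, were higher in MDA-MB-436 than in either line. Around OLR1, 6 of 10 neighbours were higher than in HT-29 and 9 of 10 higher than in MCF10A, with medians of 0.18 and 0.93, and 7 of the 10 were under background in all 3 lines. Around the other 4 genes the medians lay between -0.22 and -0.12 against HT-29 and between -0.40 and 0.17 against MCF10A.

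Of the neighbours that passed 4-fold from just one of the lines or in opposite directions, the RNA-binding protein gene RBM47, near UCHL1, was 4.24-fold lower than in HT-29. The cytokine gene IL18, near NCAM1, was 11.8-fold lower than in MCF10A. The trypsin inhibitor gene SPINK1, beside DPYSL3, measured 34.7 in MDA-MB-436, against 553 in HT-29 and 6.53 in MCF10A, 15.9-fold lower than in HT-29 and at least 1.16-fold higher than in MCF10A. BCO2, a carotenoid-cleaving enzyme gene near NCAM1, stood at 76 in MDA-MB-436, against 8.18 in HT-29 and 24.8 in MCF10A, at least 2.54-fold higher than in either line. SPINK6, a protease inhibitor gene near DPYSL3, was above background only in MCF10A, with 2.49 in MDA-MB-436, 2.6 in HT-29 and 49.2 in MCF10A.

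**Figure D5:**
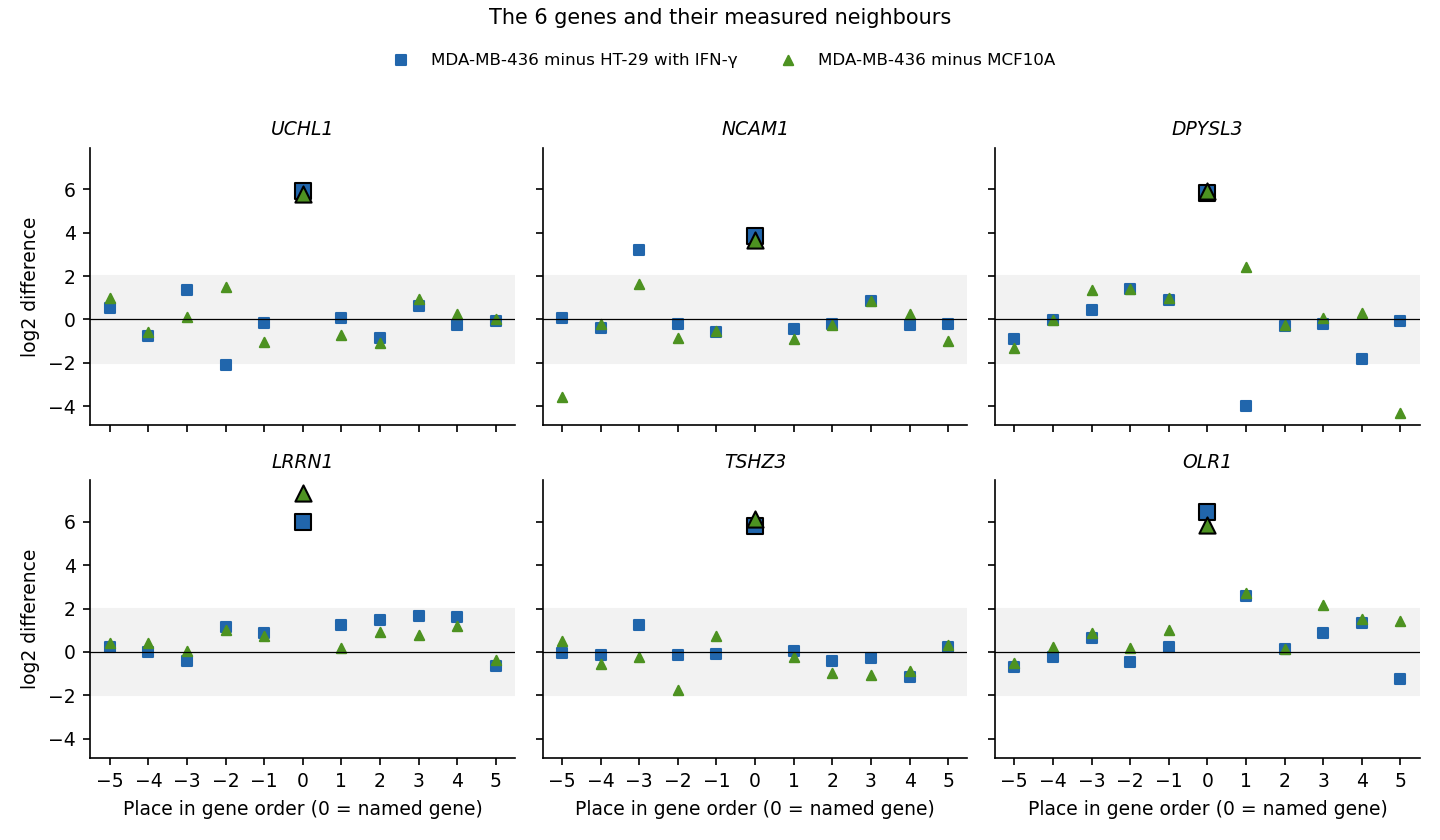
Log2 difference of MDA-MB-436 from HT-29 with IFN-γ (squares) and from MCF10A (triangles) for each of the 6 genes (large symbols at place 0) and its 5 measured neighbours on each side, in gene order and not to genomic scale. The grey band spans differences under 4-fold; TMEM52B, at place 1 beside OLR1, is the only neighbour above the band in both comparisons.

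Genes with the most similar profile were found by the Euclidean distance of log2 intensities over the 3 lines, after dim values were set to background. Since all 6 genes were at background in HT-29 and MCF10A, likeness here rests mainly on brightness in MDA-MB-436, which also depends on the probes. UCHL1 was nearest to CCL2, TFPI2, a protease inhibitor gene, and DDR2, a collagen receptor gene, at distances of 0.232 to 0.489. NCAM1 was nearest to GSPT2, CADM1 and NFE4, at distances of 0.0016 to 0.0379, and CADM1 is itself one of the adhesion molecules described above. DPYSL3 was nearest to MAGEA4, CCL2 and DDR2, at 0.251 to 0.717. LRRN1 was nearest to MAP1B, to GAL, which encodes the neuropeptide galanin, and to IL6, a cytokine gene, at 0.0255 to 0.0684. TSHZ3 was nearest to GAS7, ABCA3 and GALC, at 0.0027 to 0.0163. OLR1 was nearest to GPRC5B, RRAGD and PRKAA2, at 0.0277 to 0.0883.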

How the data were processed

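Exon array data of 3 cell lines, 1 array each, were analysed. The authors deposited linear intensity values, 1 per transcript cluster and array. The build hg19 is named, per the submitters' processing notes. For summary, background correction and scaling, the method is not given in the sources used here. Columns differ in distribution, and whether probes were quantile normalized before they were summarised is not known.

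Of 18708 clusters, 14733 carried 1 symbol in the platform annotation, 2875 carried several and 1100 were unnamed here. Symbols were updated by gene identifier (14705 matched) through the RefSeq table of GRCh38.p14, used only for names and gene order; promoter windows came from RefSeq with that build. For genes with several clusters the one with the highest mean was used, giving 14410 genes; each of the 6 genes had 1 cluster. Differences are of log2 intensity with no pseudocount. A gene was counted when a difference reached 4-fold and its higher intensity was above the 95th percentile of olfactory receptor genes. No test was made with 1 array per line, and precision is limited by the number of arrays. The genes and the 20 gene lists were chosen with earlier results of these data known. Named genes were the 6, their close relatives, up to 4 genes per list with the largest difference of MDA-MB-436 from the higher of the other lines and an intensity above background, fixed cell type markers, neighbours past 4-fold and the 3 nearest profiles; UCHL5, LRRN2 and similar relatives were named whatever their values. Protein sequences were not used here. The counting step was tested on simulated data with changes put only into genes well above background. Values under background, as the 6 genes have in HT-29 and MCF10A, were not covered by it. Alternatives were other scalings, filters, folds, a pseudocount, dim values set to background and the median over clusters. Computation ran in Python 3.11.15 with pandas 2.3.3 and numpy 2.4.6, and plots were drawn with matplotlib 3.10.9.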

Additional observations from a re-analysis of the deposited data

How the results depend on the processing

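Each of the 6 genes stayed above both other lines under all alternatives tried, which is a description, since they were picked for that height. All 6 stayed past 4-fold except TSHZ3 with dim values set to background, which left 5. The log2 difference of TSHZ3 was then 1.54. The other filters left the log2 differences of the 6 genes as they were. So did the median over clusters, since each gene had 1 cluster. Over the alternatives the log2 difference from MCF10A ranged from 5.29 to 5.98 for DPYSL3 and from 3.73 to 7.33 for LRRN1. Median centring moved the median difference of all genes from MCF10A by -0.11. The counts of all genes past 4-fold above MCF10A, HT-29 and both, 526, 675 and 311, were 1262, 1581 and 711 at 2-fold, 241, 331 and 139 at 8-fold, and 311, 407 and 173 with a pseudocount of 16. With dim values set to background the counts above MCF10A and both lines were 307 and 187. Of the listed genes apart from line markers, 15 of 228 were past 4-fold above both lines, against 9 with the pseudocount, which NRCAM, DPYSL4, SNAP25, SYT1, NOVA1 and PAX6 did not pass; all of these but DPYSL4 were also lost with dim values set to background. The single neighbour past 4-fold, TMEM52B, was lost, leaving 0, with the 99th percentile filter, the pseudocount or dim values set to background. The olfactory receptor background limits what can be said of values under 29.9. No paired analysis was possible because each line had 1 array.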

Other observations

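Genes of glia and the neural crest, the embryonic source of peripheral neurons and pigment cells, had 0 of 15 measured members at least 4-fold above both other lines in MDA-MB-436, beside 2.16% of all genes, a share at which so short a list would hold few or none. MITF, the pigment cell factor, measured 162 in MDA-MB-436, against 17.4 in HT-29 and 55.3 in MCF10A, at least 5.42-fold and 2.94-fold higher. TFAP2A, a factor of neural crest and of epithelium, stood at 53.6 in MDA-MB-436, against 170 in HT-29 and 635 in MCF10A, 3.17-fold and 11.8-fold lower. The myelin gene MBP was at 138 in MDA-MB-436, 256 in HT-29 and 177 in MCF10A. Among the other glial markers, GFAP was just above background, at 30.4 in MDA-MB-436, 34.4 in HT-29 and 35.0 in MCF10A. SOX10 was under background in MDA-MB-436, at 21.7, and just above it in HT-29 and MCF10A, at 33.9 and 31.0. OLIG2, at 15.4 in MDA-MB-436, was under background in all 3 lines.

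Of 10 measured smooth muscle genes, 0 were at least 4-fold above both other lines, which is likewise near that share. SYNM, an intermediate filament gene, reached 118 in MDA-MB-436, against 31.2 in HT-29 and 25.6 in MCF10A, 3.78-fold and at least 3.93-fold higher. ESAM, an endothelial junction gene, measured 23.8 in MDA-MB-436, against 206 in HT-29 and 14 in MCF10A, at least 6.88-fold lower than in HT-29 with IFN-γ.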
